A study of Mus musculus with 10 samples.

Results

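Cytochrome P450 genes of families 1 to 4 were followed in the liver of mouse fetuses that inherited a deletion of the imprinted microRNA gene Mir483 from their father. Members were all rows of the gene count table whose Ensembl identifier carries a symbol made of Cyp, a family digit from 1 to 4, a subfamily letter and a number, without a pseudogene ending. This rule found 75 genes among 55401, in 21 subfamilies. It left out 36 similarly named rows, which are pseudogenes, antisense genes or genes with a further letter in the symbol. Of the 75 genes, 64 had at least 1 count in some library and 47 had counts in every library, whereas 11 had none. The low-count filter kept 43 genes in 16 subfamilies for testing, and the highest total over all libraries among the 32 others was 80 counts.

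PolyA RNA came from whole livers of female fetuses at E18.5, shortly before birth, with 5 fetuses whose Mir483 deletion was transmitted by the father (Mir483Pat-KO) beside 5 WT littermates. The knockout allele is constitutive. It was made in C57BL/6N embryonic stem cells (line JM8.F6), in which a Cre plasmid removed the selection marker, and 2 independent clones were injected to found a colony kept on C57BL/6J. Each library is a separate fetus, and livers were not pooled. Because whole liver was sequenced, fewer cells of a type and less RNA per cell cannot be told apart.

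P450 enzymes hold a haem group at which they insert an oxygen atom from molecular oxygen into a substrate, with electrons handed over mainly by the reductase Por in the endoplasmic reticulum. Families 1 to 3 are best known for the oxidation of drugs, pollutants, steroids and bile acids, and family 4 for the hydroxylation of fatty acids at the end of the chain. In mouse liver hepatocytes are the main source of these enzymes, many of the genes lie in tandem clusters of close copies, and many of them rise steeply around and after birth.

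Libraries held between 10831350 and 14765880 counts. Mir483 itself had 11, 10, 22, 21 and 12 counts in WT replicates 1 to 5 and 0 in each Mir483Pat-KO library, which is below a floor of 3 counts and matches the labels. Of 11 hepatocyte marker genes, Tf was not matched by symbol in the table and the other 10 had counts, from Alb at 124562 ± 6805 CPM in WT to Tat at 16 ± 7.29 CPM (SD, n = 5). Values below are CPM, the counts of a gene scaled to the TMM-adjusted size of its library, and levels are compared between genes only after division by exon length (CPM per kilobase). "Passed" means an adjusted p under 0.05 in edgeR's quasi-likelihood test with Benjamini-Hochberg adjustment over all 14098 genes tested, and log2 fold changes are Mir483Pat-KO minus WT.

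The fetal liver used few members at high level. Per kilobase, Cyp2d26 led with 455 ± 31.4 CPM per kilobase in WT (SD, n = 5), followed by Cyp2c68 at 206 ± 46.0, Cyp2c70 at 176 ± 22.7, Cyp3a16 at 112 ± 15.3 and Cyp2c69 at 79.7 ± 13.2. Cyp2c70 makes the muricholic acids of rodent bile, and Cyp3a16 is known as a perinatal form of the Cyp3a subfamily. The SD ranges of Cyp2c68 and Cyp2c70 overlapped, so their order in WT was not resolved, while Cyp2d26 stood apart from the others. The 5 genes with the highest CPM held 63.4% of all member CPM. Cyp1a2 ranged from 0.0838 to 0.986 CPM in WT, and Cyp2c29 ranged from 0.154 to 0.419 CPM in WT. Cyp1a1 and Cyp2b10, the standard reporters of the receptors AhR and CAR, did not exceed 4 and 2 counts in any library.

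**Figure D1:**
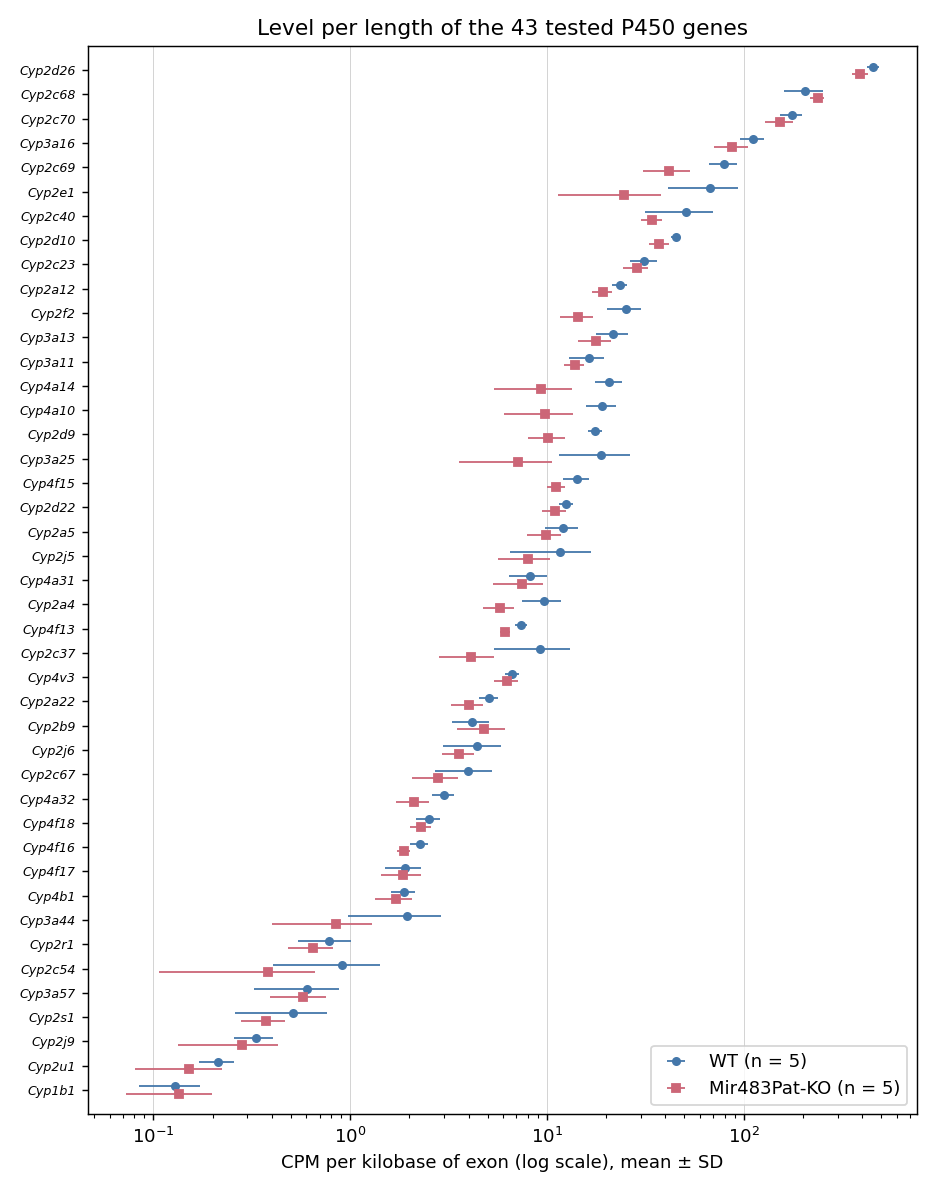
Level of each of the 43 tested P450 genes on a log axis (CPM per kilobase of exon, mean ± SD, 5 WT libraries as circles and 5 Mir483Pat-KO libraries as squares; lower bars are drawn no further than 95% of the mean). WT levels run from 0.128 for Cyp1b1 to 455 for Cyp2d26, and the Mir483Pat-KO symbol lies to the left of the WT symbol for most genes.

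P450 RNA was lower in Mir483Pat-KO. The summed CPM of all 75 members was 3291, 3159, 3144, 2733 and 2859 in WT replicates 1 to 5, and 2714, 2354, 2698, 2329 and 2203 in Mir483Pat-KO replicates 1 to 5. The groups did not overlap, and the mean fell from 3037 ± 232 to 2459 ± 232 CPM (SD, n = 5), 81.0% of the WT level. Of the 43 genes tested, 10 passed as lower and 0 as higher, that is 23.3% lower against 2.76% of all genes, while 2.43% of all genes passed as higher. The limma-voom and DESeq2 fits also called 0 members higher. With a fold change over 1.5 added, 9 members passed as lower, against 0.872% of all genes, and 0 as higher, against 0.355%.

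The direction was shared well beyond the genes that passed. The log2 fold change was below 0 for 40 of the 43 members, against 49.1% of all genes, with a median of −0.29 against 0.0042 over all genes tested. Among the 33 that did not pass, 30 were below 0 and the median was −0.27, with values from −1.21 to 0.21. Every Mir483Pat-KO value was under the lowest WT value for 9 of the 43 members, against 3.26% of all genes, and the reverse held for 0, against 3.34%. The 10 genes that passed were among the 25 members with the highest level per kilobase, so genes of low count contribute little to this number. They held 50.9% of the summed CPM difference between the groups.

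**Figure D2:**
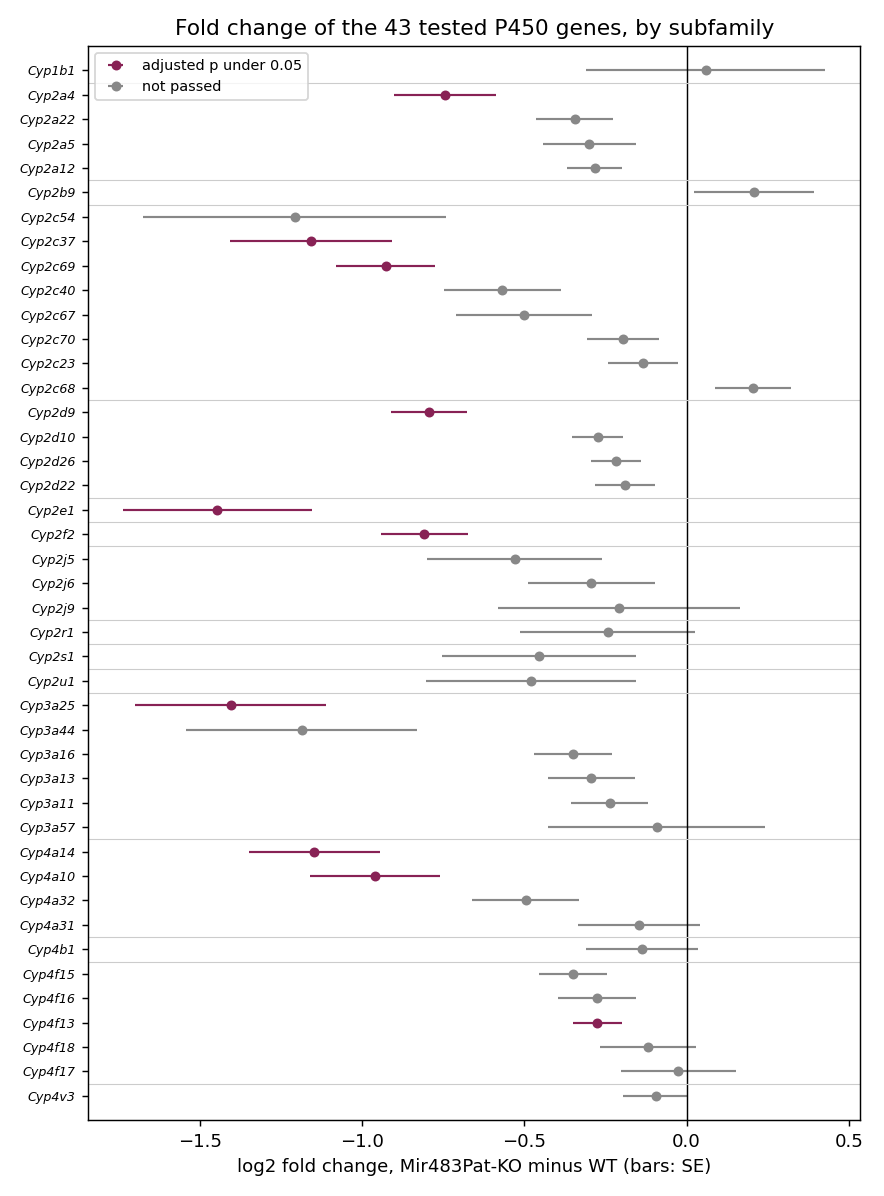
Log2 fold change (Mir483Pat-KO minus WT) of the 43 tested P450 genes with the SE of the edgeR fit, grouped by subfamily, with the 10 genes that passed in dark red. All but Cyp1b1, Cyp2b9 and Cyp2c68 lie left of 0, and Cyp2e1 and Cyp3a25 lie farthest left among those that passed.

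Markers of other cells moved with the genotype too. Summed erythroid markers (13 genes) lay between 17388 and 22259 CPM in WT and between 20424 and 28271 in Mir483Pat-KO. Of the 13, 2 passed as higher, against 2.43% of all genes, and Hbb-bs, a beta-globin gene, was among them. The median log2 fold change was 0.23, with 1 of 13 below 0. Proliferation markers summed to 1892 to 2209 CPM in WT and to 2290 to 2417 in Mir483Pat-KO without overlap. Of these 7 genes, 2 passed as higher, Ccnb1 and Bub1, against 2.43% of all genes. Hepatocyte markers overlapped, at 197536 to 223073 CPM in WT against 182364 to 210354 in Mir483Pat-KO. Their median log2 fold change was −0.17, with 8 of 10 below 0. Of the 10, 2 passed as lower, Apoa1 and Cps1, against 2.76% of all genes. Of the myeloid and macrophage markers 1 of 10, Clec4f, passed as lower, against 2.76% of all genes. None of the 7 endothelial, 7 stellate and mesenchymal or 5 bile duct markers passed. Stellate and mesenchymal markers nevertheless had a median log2 fold change of −0.40 with 6 of 7 below 0, and summed to 776 ± 166 CPM in WT against 585 ± 97.5 CPM in Mir483Pat-KO (SD, n = 5), with overlap. The median was −0.14 for endothelial markers, with 6 of 7 below 0, and −0.19 for bile duct markers, with 4 of 5 below 0, and both sums overlapped. No marker was at 0 in either group. The part of these shifts in the P450 values was not tested.

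Cyp2e1, which oxidises ethanol, acetone and other small molecules, fell. It lies on the plus strand of chr7:140763739-140774987 (GRCm38). It stood at 198, 72.7, 205, 119 and 131 CPM in WT replicates 1 to 5 and at 104, 40.2, 35.8, 42.3 and 43.8 CPM in Mir483Pat-KO replicates 1 to 5. Mir483Pat-KO replicate 1 lay apart from the other 4 and above WT replicate 2, so the groups overlapped. The log2 fold change was −1.45 ± 0.29 (SE, adjusted p = 0.0109, edgeR), a 2.72-fold lower level, and −1.85 without Mir483Pat-KO replicate 1 and −1.04 in the lower range of identification numbers alone. The robust fit, which gives outlying genes their own prior, left the adjusted p at 0.0785.

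Cyp2f2, known from airway club cells for the activation of naphthalene, also fell. It was at 68.4, 46.8, 50.6, 44.7 and 44.9 CPM in WT and at 35.3, 21.4, 33.2, 26.3 and 29.3 CPM in Mir483Pat-KO. Every Mir483Pat-KO library lay below every WT library, with a log2 fold change of −0.81 ± 0.13 (SE, adjusted p = 0.00407, edgeR). The gene lies on the plus strand of chr7:27119909-27133660, and 13.5% of its exon bases are shared with Gm15883 on the opposite strand, a share that can be told apart only if reads were counted by strand.

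The 4 Cyp2a genes, which include the coumarin and testosterone hydroxylases of mouse liver, summed to 137 to 144 CPM in WT and to 98.7 to 124 CPM in Mir483Pat-KO without overlap, 78.9% of the WT mean. All 4 had a log2 fold change below 0 and 1 passed. Cyp2a4 (chr7:26307169-26315088, plus strand) was at 11.1, 16.3, 16, 19.9 and 20.4 CPM in WT and at 10.9, 11.9, 11.1, 8.57 and 7.70 CPM in Mir483Pat-KO. Only WT replicate 1 lay within the range of the Mir483Pat-KO libraries, and the log2 fold change was −0.74 ± 0.16 (SE, adjusted p = 0.0138, edgeR). Cyp2a12, the most abundant of the 4 by CPM, had a log2 fold change of −0.28 ± 0.09 and an adjusted p of 0.0635. It passed in 6 of 20 alternative analyses, with adjusted p from 0.0216 to 0.308. With a library left out, the adjusted p was lowest at 0.0351 without Mir483Pat-KO replicate 3 and highest at 0.148 without replicate 4. Cyp2a4 shares 36.1% of its 50-base stretches with Cyp2a5, and the sum of these copies was 41.8 ± 7.42 CPM in WT against 30.5 ± 5.16 CPM in Mir483Pat-KO (SD, n = 5), with overlap.

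**Figure D3:**
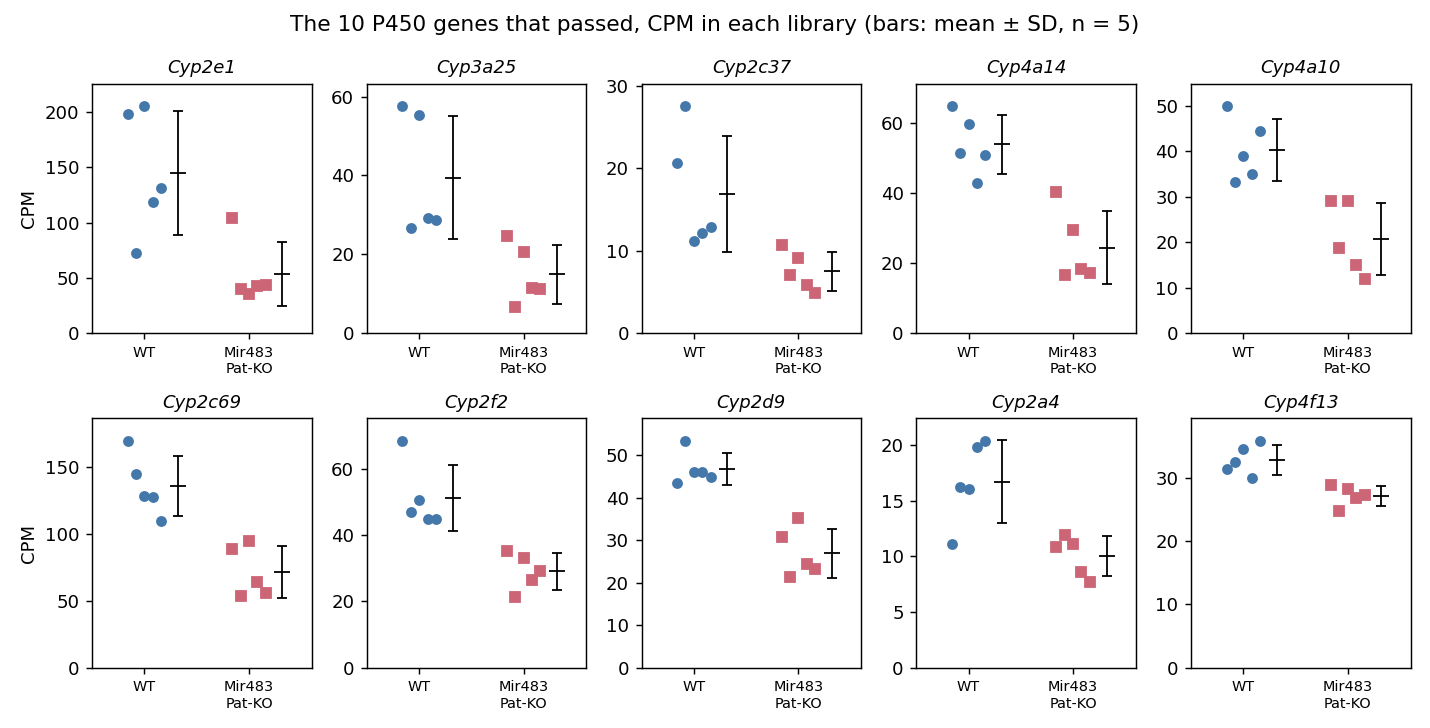
CPM in each library for the 10 P450 genes that passed, with 5 WT libraries (circles) and 5 Mir483Pat-KO libraries (squares) per panel and the mean ± SD beside them, each axis starting at 0. The groups do not overlap in 8 panels, and they overlap for Cyp2e1 through Mir483Pat-KO replicate 1 and for Cyp2a4 through WT replicate 1.

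Both Cyp4a genes that passed encode fatty acid hydroxylases and are standard targets of the receptor Ppara. Cyp4a14 was at 64.8, 51.4, 59.7, 42.8 and 51.0 CPM in WT and at 40.4, 16.5, 29.3, 18.4 and 17.0 CPM in Mir483Pat-KO. Cyp4a10 was at 49.9, 33.3, 38.9, 35.0 and 44.5 CPM in WT and at 29.0, 18.8, 29.1, 14.9 and 11.9 CPM in Mir483Pat-KO. Neither gene overlapped between the groups, although Mir483Pat-KO replicate 1 came close to the lowest WT library for Cyp4a14. Their log2 fold changes were −1.15 ± 0.20 (SE, adjusted p = 0.00571, edgeR) and −0.96 ± 0.20 (SE, adjusted p = 0.0136), and the latter had an adjusted p of 0.0628 in the robust fit. Cyp4a14 spans chr4:115486200-115496142 on the minus strand and shares 0.245% of its 50-base stretches with another gene, whereas Cyp4a10 (chr4:115518264-115533649, plus strand) shares 30.5%, mostly with Cyp4a32. Cyp4a31 and Cyp4a32 had log2 fold changes of −0.15 and −0.50 and did not pass, and Cyp4a29 had no counts. The sum of Cyp4a10, Cyp4a31 and Cyp4a32 was 65.6 ± 10.3 CPM in WT against 42.7 ± 13.7 CPM in Mir483Pat-KO (SD, n = 5), with overlap. The level summed over the whole subfamily, Cyp4a14 included, was 56.1% of WT, with 103 to 143 CPM in WT against 44.2 to 96.7 CPM in Mir483Pat-KO.

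Among the other family 4 genes the differences were small. Cyp4f13 (chr17:32924688-32947402, minus strand) was at 31.3, 32.5, 34.6, 30.0 and 35.8 CPM in WT and at 28.8, 24.8, 28.2, 26.8 and 27.3 CPM in Mir483Pat-KO. The groups did not overlap, the log2 fold change was −0.27 ± 0.08 (SE, adjusted p = 0.0460, edgeR), and the call was lost in 10 of 20 alternative analyses, among them each omission of WT replicate 2, 3 or 5 or of Mir483Pat-KO replicate 2, 3, 4 or 5, with adjusted p up to 0.103 in these. All 5 tested Cyp4f genes were below 0, and the sum of the subfamily, which hydroxylates long-chain fatty acids and leukotrienes, was 83.8 ± 5.27 CPM in WT against 69.0 ± 3.79 CPM in Mir483Pat-KO (SD, n = 5), without overlap. Cyp4b1 and Cyp4v3 had log2 fold changes of −0.14 ± 0.17 and −0.10 ± 0.10 and did not pass. With a library left out, they ranged from −0.22 (without WT replicate 4) to −0.07 (without Mir483Pat-KO replicate 2) for Cyp4b1 and from −0.17 (without Mir483Pat-KO replicate 3) to −0.04 (without Mir483Pat-KO replicate 2) for Cyp4v3.

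Cyp3a genes, the main drug and steroid hydroxylases of liver, gave 1 call among 6 tested. Cyp3a25 (chr5:145977194-146009618, minus strand) was at 57.5, 26.6, 55.4, 29.1 and 28.6 CPM in WT and at 24.5, 6.66, 20.5, 11.4 and 11.3 CPM in Mir483Pat-KO. No Mir483Pat-KO library reached the lowest WT library, WT replicates 1 and 3 were well above the other WT libraries, and the log2 fold change was −1.40 ± 0.29 (SE, adjusted p = 0.0138, edgeR). With the robust fit the adjusted p was 0.0849. Cyp3a25 shares 25% of its 50-base stretches with Cyp3a59, which adds at most 0.930 CPM in any library. The more abundant Cyp3a16 was at 212, 195, 225, 164 and 169 CPM in WT and at 197, 145, 157, 142 and 116 CPM in Mir483Pat-KO, and did not pass (log2 fold change −0.35 ± 0.12, adjusted p = 0.100), though it did in 4 of 20 alternative analyses, among them that without Mir483Pat-KO replicate 1 (adjusted p = 0.0178, and 0.00652 to 0.505 over the 20). Cyp3a11, the main adult form, and Cyp3a13 did not pass either, with log2 fold changes of −0.24 (95% interval −0.49 to 0.01) and −0.29 (95% interval −0.58 to −0.01). Cyp3a11 passed in 1 of 20 alternative analyses, with GC content and length offsets (adjusted p = 0.0272), and was −0.13 without WT replicate 1. Cyp3a13 passed in 2 of 20, with these offsets (adjusted p = 0.0417) and with no low-count filter (adjusted p = 0.0489). Their adjusted p reached 0.468 and 0.434 in the other alternatives. All 6 tested Cyp3a genes were below 0, and the sum of the subfamily was 385 ± 62.2 CPM in WT against 292 ± 52.4 CPM in Mir483Pat-KO (SD, n = 5), with overlap.

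In the Cyp2d subfamily, Cyp2d9, a testosterone hydroxylase that is male-predominant in adult liver, fell in these female fetuses. Its levels were 43.4, 53.4, 46.0, 46.2 and 45.0 CPM in WT and 30.7, 21.3, 35.2, 24.4 and 23.3 CPM in Mir483Pat-KO. The groups did not overlap, with a log2 fold change of −0.79 ± 0.12 (SE, adjusted p = 0.00265, edgeR), and Cyp2d9 was the only member that passed in all 20 alternative analyses. The gene (chr15:82433437-82456845, plus strand) shares 29.0% of its 50-base stretches with other genes, and the sum of Cyp2d9, Cyp2d10, Cyp2d11 and Cyp2d12 was 122 ± 1.58 CPM in WT against 88.7 ± 12.9 CPM in Mir483Pat-KO (SD, n = 5), without overlap. Cyp2d26, the most abundant member, was at 866, 798, 784, 747 and 880 CPM in WT and at 700, 641, 816, 667 and 681 CPM in Mir483Pat-KO. Mir483Pat-KO replicate 3 lay among the WT libraries, and the log2 fold change of −0.22 ± 0.08 did not pass (adjusted p = 0.112). It passed in 3 of 20 alternative analyses, without that library (adjusted p = 0.0446), with DESeq2 (0.0484) and with the identification number range as a covariate (0.0497), and the adjusted p reached 0.244 in the others.

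The Cyp2c genes, a large cluster on chromosome 19 whose products oxidise drugs and arachidonic acid, did not share a direction in full, and differences between members were not tested. Of the 8 tested, 2 passed as lower and 1 had a log2 fold change above 0, and the sum of the subfamily overlapped between the groups, at 1036 ± 164 CPM in WT against 930 ± 81.6 CPM in Mir483Pat-KO (SD, n = 5). Cyp2c69 (chr19:39842814-39886799, minus strand) was at 170, 145, 128, 128 and 110 CPM in WT and at 89.2, 53.6, 95, 64.4 and 55.7 CPM in Mir483Pat-KO, without overlap. Its log2 fold change was −0.93 ± 0.15 (SE, adjusted p = 0.00401, edgeR). Cyp2c68 (chr19:39688834-39741054, minus strand) was at 306, 484.9, 374, 287 and 325 CPM in WT and at 399, 433, 451, 402 and 363 CPM in Mir483Pat-KO. All but 1 of the WT libraries lay at or below the middle of the Mir483Pat-KO range, WT replicate 2 lay above the whole of it, and the log2 fold change of 0.21 ± 0.12 did not pass (adjusted p = 0.323). Without WT replicate 2 it was 0.34, with an adjusted p of 0.0354, the sole member called higher in any analysis. It was 0.07 with GC content and length offsets and 0.13 without WT replicate 4.

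Cyp2c37 (chr19:39992424-40012243, plus strand) was at 20.6, 27.5, 11.2, 12.1 and 12.9 CPM in WT and at 10.6, 7.06, 9.12, 5.86 and 4.87 CPM in Mir483Pat-KO. The groups did not overlap, but the highest Mir483Pat-KO library nearly reached the lowest WT library. The log2 fold change was −1.16 ± 0.25 (SE, adjusted p = 0.0158, edgeR), with an adjusted p of 0.0524 without Mir483Pat-KO replicate 4 and of 0.0639 in the robust fit. It shares 30.1% of its 50-base stretches with other genes, mostly Cyp2c50, and the sum with Cyp2c50 and Cyp2c54 was 18.6 ± 7.44 CPM in WT against 8.26 ± 2.67 CPM in Mir483Pat-KO (SD, n = 5), without overlap. Cyp2c70, which has no shared stretch, had a log2 fold change of −0.20 (95% interval −0.43 to 0.04) and did not pass, with values from −0.31 to −0.05 over 20 alternative analyses.

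Cyp2c69, Cyp2c40, Cyp2c67 and Cyp2c68 are neighbours on the minus strand of chromosome 19 and near-copies of each other, so their start regions are shown beside their values. They come from RefSeq (GRCm38.p6) and end upstream of the annotated starts. Capitals mark CAAAGTCCA, the binding element of HNF4-type nuclear receptors, searched on both strands.
Cyp2c69: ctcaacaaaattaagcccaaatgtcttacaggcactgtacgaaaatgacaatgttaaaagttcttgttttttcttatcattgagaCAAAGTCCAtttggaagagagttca
Cyp2c40: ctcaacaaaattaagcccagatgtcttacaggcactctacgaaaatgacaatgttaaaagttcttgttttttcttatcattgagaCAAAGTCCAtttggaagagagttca
Cyp2c67: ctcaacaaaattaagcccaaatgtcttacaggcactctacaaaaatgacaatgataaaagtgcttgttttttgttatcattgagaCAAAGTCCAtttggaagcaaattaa
Cyp2c68: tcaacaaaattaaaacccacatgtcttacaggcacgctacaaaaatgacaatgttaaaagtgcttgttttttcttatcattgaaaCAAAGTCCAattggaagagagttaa
They lie at chr19:39886820-39886929, chr19:39812835-39812944, chr19:39649143-39649252 and chr19:39741154-39741263 in this order, and the element is present in all 4. In the RefSeq promoter windows (250 bases before to 50 after the start), which begin at different points of the shared sequence, Cyp2c69 was 98.9% identical to Cyp2c40 over 270 aligned positions and 92.6% identical to Cyp2c68 over 299.

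A second stretch lies further along, around the annotated starts, and holds 1 of the places where Cyp2c68 differs from its neighbours, picked after the sequences had been seen. Capitals mark TATAAA, the letters of a TATA box, which usually stands just before a transcription start, although in Cyp2c69 and Cyp2c40 it falls after the annotated start.
Cyp2c69: ttgcgaatgctgTATAAAgtgtctggaatg
Cyp2c40: ttgcgaatgctgTATAAAgtgt
Cyp2c67: ttgcaaatgatgTATAAAgtgtctggaatg
Cyp2c68: ttgcgaatgcactacaaagtgtctggagtg
These are chr19:39886742-39886771, chr19:39812765-39812786, chr19:39649065-39649094 and chr19:39741076-39741105, all on the minus strand. The 3 genes with TATAAA here had log2 fold changes of −0.93 for Cyp2c69, −0.57 for Cyp2c40 and −0.50 for Cyp2c67, of which only that of Cyp2c69 passed, and Cyp2c68, without these letters, had 0.21. This is a description of 4 genes with related sequence. Over all members in the promoter table, TATAAA was present in 17 of 35 tested and in 4 of 8 that passed. The annotated starts of RefSeq and GENCODE differ by 30 bases or more for some of them.

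The same 4 genes also have transcript sequence in common. Cyp2c69 shares 46.3% of its 50-base transcript stretches with Cyp2c40 and 20.6% with Cyp2c68, and how reads that fit several of them were counted is not stated. Cyp2c40 plus Cyp2c69 was 240 ± 53.5 CPM in WT against 141 ± 25.4 CPM in Mir483Pat-KO (SD, n = 5), without overlap. Cyp2c67 plus Cyp2c68 was 362 ± 81.4 CPM in WT against 415 ± 35.1 CPM in Mir483Pat-KO, with overlap. The sum of all 4 was 602 ± 124 CPM in WT against 556 ± 55 CPM in Mir483Pat-KO (SD, n = 5), with overlap. Cyp2c69 as a percentage of Cyp2c69 plus Cyp2c68 was 35.7, 23.0, 25.5, 30.8 and 25.3 in WT and 18.3, 11, 17.4, 13.8 and 13.3 in Mir483Pat-KO, so the makeup of the group differed without overlap while its sum overlapped. These sums and the percentage were formed after the values had been seen, and no test was made of them.

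**Figure D4:**
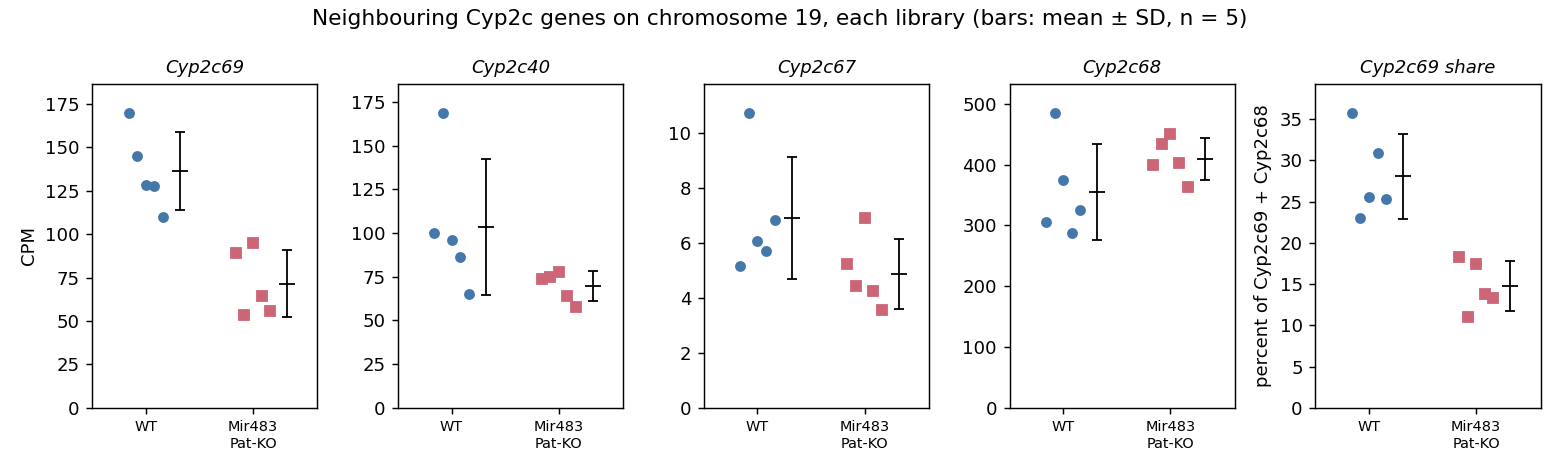
CPM in each library for the 4 neighbouring Cyp2c genes, and in the last panel Cyp2c69 as a percentage of Cyp2c69 plus Cyp2c68, with the mean ± SD of 5 libraries beside each group and every axis starting at 0. The percentage is 28.1 ± 5.14 in WT and 14.8 ± 3.01 in Mir483Pat-KO, while Cyp2c40, Cyp2c67 and Cyp2c68 each overlap between the groups.

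Promoter letters were counted for the 62 members found in the RefSeq promoter table, which holds 27025 genes. CAAAGTCCA was present in 8 of the 62, against 0.555% of all genes, and 1 of the 8, Cyp2c69, had passed. Apart from Cyp2c genes the 8 include Cyp3a16 and Cyp3a11. The related CAAAGGTCA was present in Cyp3a25, Cyp3a57 and Cyp3a59, against 0.544% of all genes. The stretches below set these Cyp3a genes side by side, with the element in capitals.
Cyp3a25: gaatataagctCAAAGGTCAgagtaagaaa
Cyp3a16: aaagagacgacCAAAGTCCAggtgatgcag
Cyp3a11: gaagagagtacCAAAGTCCAgtgatgcaaa
They lie on the minus strand at chr5:146009779-146009808, chr5:145469804-145469833 and chr5:145879945-145879974. The element stands upstream of both the RefSeq and the GENCODE start in Cyp3a25 and Cyp3a16. In Cyp3a11 it stands before the RefSeq start but after the GENCODE start. TATAAA was present in 27 of the 62 members, against 15.7% of all genes, among them Cyp2e1, which is shown as a gene that passed. The letters stand before its RefSeq start but after its GENCODE start.
Cyp2e1: caacgacacgtTATAAAatccttgttt
This is chr7:140763777-140763803 on the plus strand. GCGTG, the core bound by the AhR, was present in 13 of the 62, against 35.2% of all genes, and in 0 of the 8 of them that passed. Cyp4a10 and Cyp4a14 were not in the table. A letter match is not evidence of binding.

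The deleted gene makes a pair of mature microRNAs, shown because each could in principle pair with member transcripts. They lie on the minus strand of chromosome 7, at chr7:142654932-142654952 and chr7:142654968-142654989, and capitals mark the seed, bases 2 to 8.
mmu-miR-483-3p: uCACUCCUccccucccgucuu
mmu-miR-483-5p: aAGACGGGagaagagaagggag
The matching site AGGAGTG was found in the annotated 3′ UTR of 0 of 69 members, against 10.7% of 21045 genes. The site CCCGTCT was found in 1 of the 69, Cyp2f2, against 2.68% of genes.

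The remaining subfamilies had fewer counts or smaller differences. Cyp2j5, an epoxygenase of arachidonic acid, was at 43.5, 9.72, 27.8, 27.2 and 27.7 CPM in WT and at 25.3, 12.7, 24.0, 15.2 and 16.7 CPM in Mir483Pat-KO. WT replicate 2 was the lowest library of all, the log2 fold change was −0.53 ± 0.27 (SE, adjusted p = 0.261, edgeR), and it passed without that library (−0.74, adjusted p = 0.0284). Without WT replicate 1 it was −0.31 (adjusted p = 0.497), and over 20 alternative analyses the adjusted p ran from 0.00910 to 0.625. Cyp2b9, related to the phenobarbital-inducible Cyp2b10, was at 7.86 ± 1.70 CPM in WT against 9.02 ± 2.48 CPM in Mir483Pat-KO (SD, n = 5), and its log2 fold change of 0.21 (95% interval −0.18 to 0.60) did not pass. Leaving out Mir483Pat-KO replicate 3 gave 0.06, leaving out WT replicate 3 gave 0.13, and leaving out WT replicate 1 or Mir483Pat-KO replicate 2 gave 0.33. The vitamin D hydroxylase gene Cyp2r1 had a log2 fold change of −0.24 ± 0.27, Cyp2s1 one of −0.45 ± 0.30 and the fatty acid hydroxylase gene Cyp2u1 one of −0.48 ± 0.32, and none of them passed. With a library left out, they ranged from −0.42 (without WT replicate 5) to −0.15 (without WT replicate 3) for Cyp2r1, from −0.64 (without WT replicate 1) to −0.16 (without WT replicate 4) for Cyp2s1, and from −0.74 (without Mir483Pat-KO replicate 1) to −0.28 (without Mir483Pat-KO replicate 3) for Cyp2u1. Cyp1b1 was below 1.3 CPM in every library, with a log2 fold change of 0.06 ± 0.37.

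The same few Mir483Pat-KO libraries lay lowest or highest for most of the genes that passed. Among the 10 genes that passed, the lowest library was Mir483Pat-KO replicate 2 for 6 genes, replicate 5 for 3 and replicate 3 for 1, and the highest of the Mir483Pat-KO libraries was replicate 1 for 6, replicate 3 for 3 and replicate 2 for 1. In the sums by subfamily, Cyp2a, Cyp2f, Cyp4a and Cyp4f did not overlap between the groups, at 78.9%, 57%, 56.1% and 82.4% of the WT mean. Cyp2e, Cyp2j, Cyp3a, Cyp2d and Cyp2c overlapped, at 36.7%, 73.9%, 75.8%, 84.4% and 89.7%. Cyp2b and Cyp1b also overlapped but lay above the WT mean, at 115% and 106%, and the other 5 sums with a tested member overlapped at 71.1% to 93.6%.

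**Figure D5:**
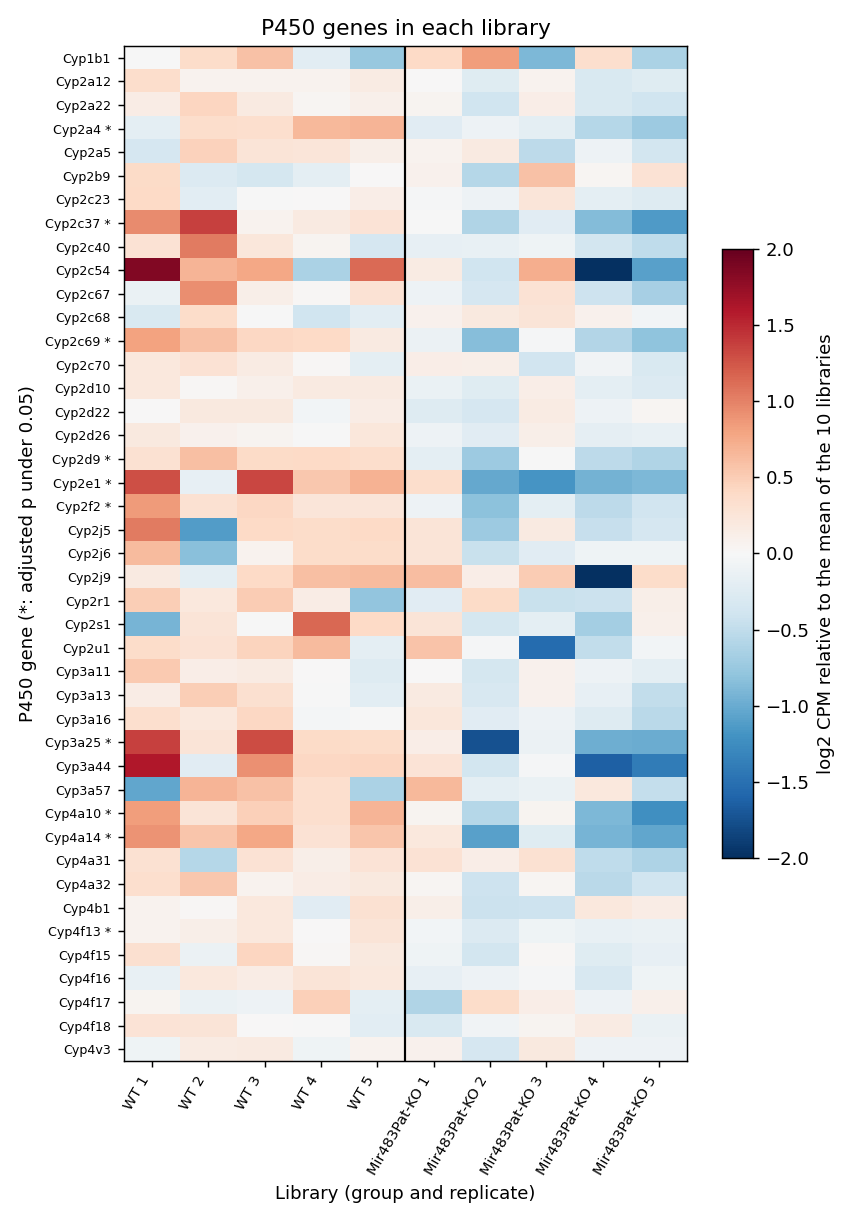
Log2 CPM of the 43 tested P450 genes in each of the 10 libraries, relative to the mean of the 10 libraries for that gene, on a colour scale that ends at −2 and 2, with genes that passed marked by an asterisk. Mir483Pat-KO replicates 2, 4 and 5 are bluest over the marked genes, and Mir483Pat-KO replicate 1 is the palest of the 5 for most of them.

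The animals' identification numbers fall into 2 ranges that are unequally filled, with 4 WT and 2 Mir483Pat-KO fetuses in the lower and 1 WT and 3 Mir483Pat-KO fetuses in the upper range. What the ranges stand for is not stated. Within the lower range, both Mir483Pat-KO values were under the lowest WT value for 34.9% of the tested members against 12.1% of all genes. The genes that passed were called from these same libraries, so they are not counted apart. Among them, Cyp2a4 and Cyp2e1 overlapped between the groups within this range. In the upper range, the 3 Mir483Pat-KO values were under that of the single WT library for 58.1% of the tested members against 31.2% of all genes. In a fit of the lower range alone, 1 member (Cyp2d9) passed as lower, against 0.138% of all genes, and with the range as a covariate 12 passed as lower, against 3.85% of all genes.

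Genes that supply P450 enzymes with electrons and haem did not move as a block. Of 12 tested, Alas1, which starts haem synthesis, passed as lower (48.5 ± 3.36 CPM in WT against 37.9 ± 4.75 CPM in Mir483Pat-KO, log2 fold change −0.36), and Fech, which inserts iron to complete haem, passed as higher (516 ± 49.4 and 651 ± 68.2 CPM, 0.34). Por was at 246, 280, 309, 253 and 307 CPM in WT and at 231, 174, 263, 190 and 233 CPM in Mir483Pat-KO. Those libraries overlapped, and its log2 fold change of −0.36 ± 0.10 did not pass (adjusted p = 0.0587). Alas1 did not pass with GC content and length offsets (adjusted p = 0.0697), nor Fech with the identification number range as a covariate (adjusted p = 0.0608). Over all genes, 2.76% passed as lower and 2.43% as higher. The median of the list was −0.05, against 0.0042 over all genes.

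Of 21 tested regulators 3 passed as lower, against 2.76% of all genes, and 0 as higher. Nr1i3, which encodes CAR, the receptor that activates Cyp2b and Cyp2c genes, was at 41.5, 32.2, 39.8, 33.7 and 36.6 CPM in WT and at 22.9, 14.4, 29.0, 17.3 and 16.9 CPM in Mir483Pat-KO, without overlap (log2 fold change −0.87 ± 0.15, adjusted p = 0.00455). Foxa2, a factor of hepatocyte identity, changed by −0.49 ± 0.11 on the log2 scale (adjusted p = 0.0201). Nr0b2, a repressor induced by bile acid signalling, had one of −1.68 ± 0.42 (adjusted p = 0.0310) at no more than 2.93 CPM in any library. Foxa2 did not pass with GC content and length offsets (adjusted p = 0.0806), nor Nr0b2 with the identification number range as a covariate (adjusted p = 0.0622). Among those that did not pass in the main test, Ahr had a log2 fold change of 0.01, Nr1i2 −0.13, Ppara −0.20 and Hnf4a −0.24, whereas Esr1 had 0.43, Onecut1 0.38 and Nr3c1 0.26. Of the 21, 15 were below 0, and the median was −0.13.

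P450 genes outside families 1 to 4 and conjugating enzymes were read from the same fit. Of 10 tested genes of other families 2 passed as lower, against 2.76% of all genes, Cyp27a1 (60.3 ± 9.64 CPM in WT against 38.2 ± 4.19 CPM in Mir483Pat-KO) and Cyp39a1 (110 ± 16.4 and 77.7 ± 14.2 CPM), which both act in bile acid synthesis from cholesterol, and the median log2 fold change of the list was −0.38. A list named phase II held 14 genes, of enzymes that attach polar groups and of carboxylesterases, which hydrolyse and do not conjugate. Of the 14, 3 passed as lower, against the same 2.76%, and the median was −0.22. Ugt1a1, the bilirubin transferase, fell from 58.1 ± 15.4 to 19.9 ± 9.35 CPM, and it shares exons with the other Ugt1a genes. Ces2a, a carboxylesterase gene, had a log2 fold change of −0.42 ± 0.09. Summed phase II CPM lay between 1250 and 1483 in WT and between 1085 and 1221 in Mir483Pat-KO, without overlap.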

How the data were processed

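RNA was made into stranded polyA libraries from 500 ng of total RNA. The authors aligned reads with STAR to GRCm38 and deposited unnormalized counts, 1 row per Ensembl gene. How strand and reads that fit several places were handled is not stated, so values of close copies and of overlapping genes are uncertain. Symbols, found for 55141 of 55401 genes, and positions came from GENCODE M21 (GRCm38), promoter and microRNA sequences from RefSeq. Members, gene lists and tests were chosen with earlier results of these data known.

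The main test used edgeR 4.0.16 in R 4.3.3 (filterByExpr, TMM, quasi-likelihood F-test without covariates), with Benjamini-Hochberg adjustment over 14098 genes. The common biological coefficient of variation was 0.111. P-values measure the spread between fetuses, and a floor of 3 counts covers counting error only. Alternatives were DESeq2 1.42.0, limma-voom 3.58.1, other scalings, filters and fits, and omission of each library. The procedure was tested on simulated data. Members named are those that passed, the most abundant of each subfamily, the 5 highest per kilobase and a set of well-known forms. Cyp2c40, Cyp2c50, Cyp2c54, Cyp2c67, Cyp2a5, Cyp2d10, Cyp2d11, Cyp2d12, Cyp3a57, Cyp3a59, Cyp4a29, Cyp4a31 and Cyp4a32 were added after their values were seen, as copies or neighbours of these. Marker and context lists were read by counts alone. Some single-gene results are not reported here.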

Additional observations from a re-analysis of the deposited data

Results flagged for a closer look

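In 4 of 64 groups of 5 libraries tested, the highest library lay apart from the others by Dixon's criterion, and about 1 in 20 groups would do so by chance. For Cyp2e1, Mir483Pat-KO replicate 1 was at 104 CPM and the other 4 at 35.8 to 43.8 CPM. For Cyp2a12, WT replicate 1 was at 93.1 CPM and the others at 76.8 to 81.5 CPM. For Cyp2f2, WT replicate 1 was at 68.4 CPM and the others at 44.7 to 50.6 CPM. For Cyp2d9, WT replicate 2 was at 53.4 CPM and the others at 43.4 to 46.2 CPM. Cyp2e1, Cyp2f2 and Cyp2d9 passed also without the library concerned.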

How the results depend on the processing

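The count of 10 members that passed as lower was 10 with RLE scaling and with at least 10 counts in every library, 11 with limma-voom, 12 with the identification number range as a covariate, 15 with DESeq2, 15 with GC content and length offsets and 7 with the robust fit. It was 19 of 64 tested with no low-count filter, 18 with the replicate number as a block and 1 with the lower range alone, which leaves 4 against 2 libraries, and 8 to 14 with each library left out in turn. The share of all genes passing as lower moved too, from 2.76% to 2.87% with RLE scaling, 3.11% with at least 10 counts, 2.84% with limma-voom, 3.85% with the covariate, 4.34% with DESeq2, 2.51% with the offsets, 2.83% with the robust fit, 2.2% with no low-count filter, 4.23% with the block, 0.138% with the lower range alone and 1.35% to 3.34% with a library left out. The block kept all 10 calls, but the samples share only a number: same-numbered libraries, relative to their group means, correlated across genes at 0.0871 on average (lowest −0.0496), and 2 of 5 WT and 3 of 5 Mir483Pat-KO libraries correlated best with their own number. With a fold change over 1.5 added, the count of 9 stayed at 9 with RLE scaling, limma-voom, the covariate and at least 10 counts. It was 5 with the robust fit, 1 with the lower range alone and 8 to 11 with a library left out. It was 10 with DESeq2, 11 with the block, 11 with the offsets and 12 with no low-count filter. The share of all genes passing as lower at this cut was taken for the main test alone, at 0.872%. The robust fit lost Cyp2c37, Cyp2e1, Cyp3a25 and Cyp4a10. Members called higher numbered 0 to 1 with a library left out, the 1 being Cyp2c68 without WT replicate 2. The cause of these differences was not tested. Among members that did not pass, the direction changed for Cyp1b1, at −0.0064 with limma-voom and from −0.19 to 0.23 with a library left out, for Cyp2b9, at −0.11 in the lower range alone, and for Cyp2r1, at 0.0104 with the range as a covariate. Of the haem and electron transfer partners 0 passed as lower and 2 as higher with GC content and length offsets, and 2 as lower and 0 as higher with the range as a covariate. With that covariate 5 regulators passed as lower, and with the offsets 2 regulators and 6 phase II genes did. The summed levels of the 16 subfamilies with a tested member moved by less than 1 SD of the replicates in all 13 alternatives, but the log2 ratio of the Cyp2b sum, 0.20, was −0.15 in the lower range alone, and that of the Cyp1b sum, 0.08, was −0.07 without WT replicate 5 and −0.16 without Mir483Pat-KO replicate 2. Low counts limit the 32 untested members, none of which exceeded a mean of 0.945 CPM in either group. Whether depth or absence of their RNA lies behind these counts was not tested.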
